A study of Mus musculus with 24 samples.

Results

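This report compares mouse colon arrays with high and with low signal for RNA of pancreatic lipase (Pnlip), a digestive enzyme of the exocrine pancreas. The 20 arrays of ApcMin mice were chosen by their raw Pnlip intensity: 6 arrays at 500 or more are called Pnlip-high, 11 arrays under 150 are called Pnlip-low, and 3 arrays between these cutoffs were set aside. The whole series holds 24 arrays, the other 4 being wild-type arrays that took no part in the sorting. Because a measured value chose the arrays, every comparison between them describes these arrays and carries no test.

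The study profiled total colon RNA on Illumina MouseRef-8 v2.0 bead arrays. The ApcMin groups carry the APCMin/+ genotype, a germline mutation of the tumour suppressor Apc that leads to intestinal adenomas, and comprised 6 arrays after ATB-346 at 14.5 mg/kg, 6 after naproxen at 10 mg/kg and 8 after vehicle, a mixture of DMSO and carboxymethylcellulose. The 4 other arrays came from wild-type mice given that vehicle, and all mice are labelled as strain C57Bl/6. Gavage was given once a day for 7 days starting at 6 weeks of age, and the colon was taken at 14 weeks of age, 7 weeks after dosing had ended. Naproxen is a non-steroidal anti-inflammatory drug, and ATB-346 is a naproxen derivative that releases hydrogen sulfide. The labels do not say whether arrays came from separate animals, so the spread between arrays may be partly technical.

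Acinar cells make up most of the pancreas and secrete digestive enzymes, many as inactive precursors, into ducts that drain to the small intestine. Their identity depends on the transcription factor complex PTF1, which contains Ptf1a and Rbpjl, while ducts carry keratins, Cftr and Sox9, and islets carry the hormone genes Ins1, Ins2, Gcg and Sst. Several of these genes are also active in the normal intestine: Gcg and Sst mark enteroendocrine cells, and Krt19, Cftr and Sox9 mark the intestinal epithelium. In RNA of a whole tissue, fewer cells of a type and less RNA per cell cannot be told apart.

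Pnlip itself spanned a wide range. The Pnlip-high arrays were vehicle replicates 7, 2, 8 and 3 at 23627, 9199, 3973 and 3573 intensity units, and naproxen replicates 1 and 3 at 2423 and 591 units. The arrays between the cutoffs were vehicle 4 at 484, vehicle 5 at 197 and naproxen 2 at 154 units. The Pnlip-low arrays lay between 55.6 and 102 units with a median of 65.2, against a median of 3773 in the Pnlip-high arrays. Just inside the upper cutoff lay naproxen 3 and just outside it vehicle 4. At the lower cutoff, naproxen 2 lay just above and naproxen 4, at 102 units, just below. Wild-type arrays had 57.0 to 88.4 units of Pnlip. The median target of an array had an intensity of 86.6 to 95.1 in Pnlip-high and 82.4 to 102.9 in Pnlip-low arrays, and Pnlip lay below the median target on 9 of the 11 Pnlip-low arrays. The other 2 were naproxen 4 and vehicle 6. No detection values were used, so RNA at such levels cannot be told apart from background.

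The label of the set was checked on 4 genes that define acinar tissue, of which Pnlip chose the arrays. Carboxypeptidase A1 (Cpa1) had a lowest, median and highest intensity of 245, 1606 and 19279 in Pnlip-high arrays, against 62.3, 71.5 and 93.2 in Pnlip-low arrays. Carboxypeptidase B1 (Cpb1) had 234.5, 1406 and 19008 units in Pnlip-high arrays, against 65.9, 80.1 and 91.9 in Pnlip-low arrays. Chymotrypsinogen B1 (Ctrb1) had 152, 911.5 and 17725 units in Pnlip-high arrays, against 67.3, 75 and 86.1 in Pnlip-low arrays. All 3 enzymes separated the classes without overlap, and vehicle 7 was the highest array for each.

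**Figure D1:**
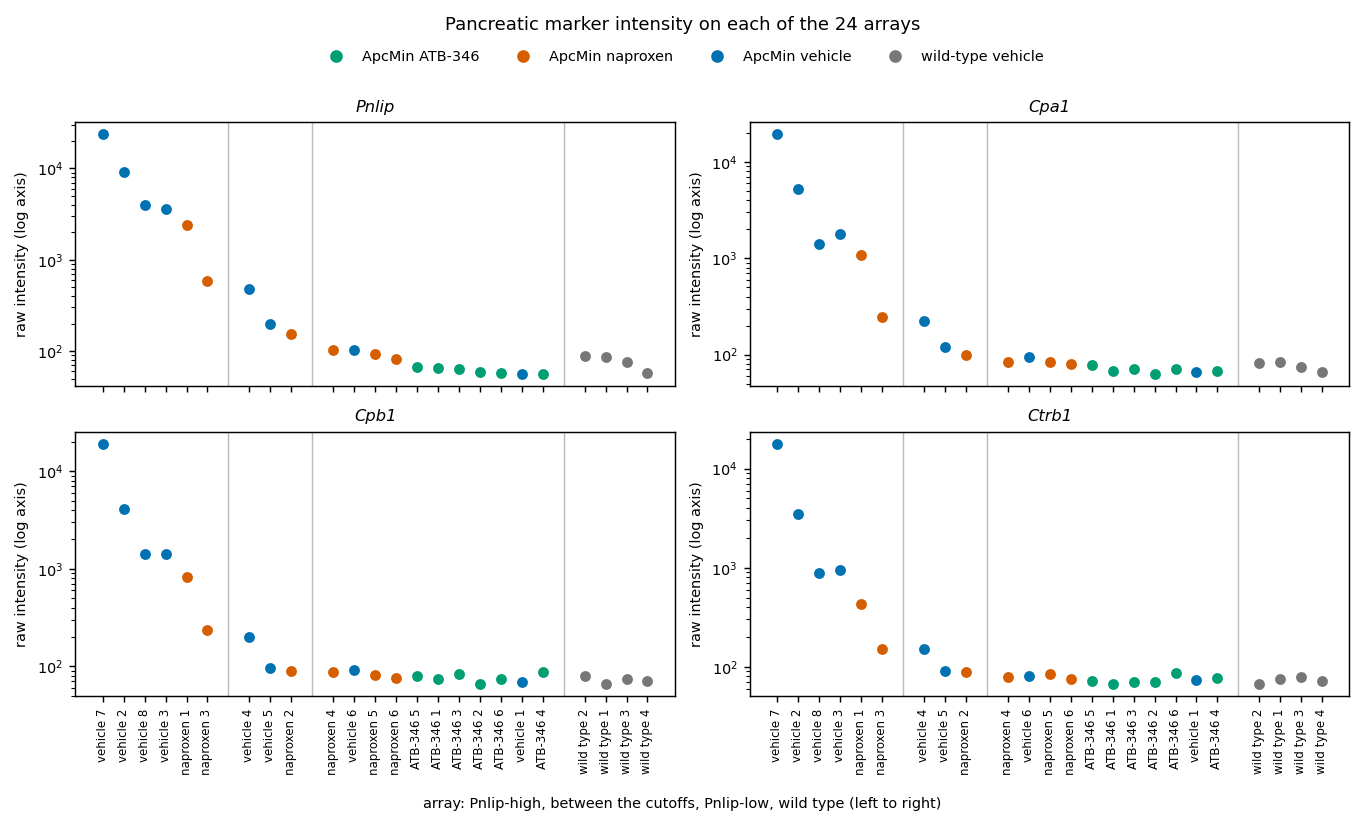
Raw intensity (log axis) of acinar marker genes on each of the 24 arrays, 1 point per array coloured by treatment group, with Pnlip-high, intermediate, Pnlip-low and wild-type arrays as blocks from left to right. The 6 Pnlip-high arrays lie above the Pnlip-low arrays for Pnlip, Cpa1, Cpb1 and Ctrb1, and the 3 intermediate arrays lie mostly between them.

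The start regions of some of these genes hold letters known from acinar promoters. RefSeq promoter windows (GRCm38.p6, 250 bases before to 50 bases after the annotated start) were searched on both strands for 3 short motifs. The E-box CACCTG is of the kind bound by the PTF1 complex in acinar cells. The other part of the known binding site of that complex was searched as TTTCCC, in the same windows and by the same rule. The general promoter element of many highly expressed genes was searched as TATAAA. Also searched was a spaced form, the E-box followed after any 4 bases by the other part on the same strand, which overlaps both short motifs. The windows printed are of Pnlip, the gene that chose the arrays, Cela2a, the gene with the widest difference, and Cela1 and Gm5771, whose windows hold the spaced form. Capitals mark every match of the 3 short motifs on either strand.
Pnlip (chr19:58670115-58670414, plus strand): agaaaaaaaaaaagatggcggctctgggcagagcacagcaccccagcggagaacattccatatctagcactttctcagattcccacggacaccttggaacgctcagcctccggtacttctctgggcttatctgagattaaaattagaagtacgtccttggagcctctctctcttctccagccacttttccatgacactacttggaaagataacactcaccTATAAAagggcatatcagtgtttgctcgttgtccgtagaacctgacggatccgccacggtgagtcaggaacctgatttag
Cela2a (chr4:141825956-141826255, minus strand): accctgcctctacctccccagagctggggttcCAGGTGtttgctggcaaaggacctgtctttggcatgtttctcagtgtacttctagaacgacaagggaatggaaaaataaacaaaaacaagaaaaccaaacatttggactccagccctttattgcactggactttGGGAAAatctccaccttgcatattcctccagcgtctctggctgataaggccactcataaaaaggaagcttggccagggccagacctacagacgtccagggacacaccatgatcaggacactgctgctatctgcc
Cela1 (chr15:100687871-100688170, minus strand): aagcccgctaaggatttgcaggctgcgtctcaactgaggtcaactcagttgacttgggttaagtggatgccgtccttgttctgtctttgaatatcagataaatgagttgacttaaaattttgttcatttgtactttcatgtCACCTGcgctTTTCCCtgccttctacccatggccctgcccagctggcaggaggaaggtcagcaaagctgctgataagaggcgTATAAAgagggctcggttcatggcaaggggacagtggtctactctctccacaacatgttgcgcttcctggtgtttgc
Gm5771 (chr6:41392106-41392405, plus strand): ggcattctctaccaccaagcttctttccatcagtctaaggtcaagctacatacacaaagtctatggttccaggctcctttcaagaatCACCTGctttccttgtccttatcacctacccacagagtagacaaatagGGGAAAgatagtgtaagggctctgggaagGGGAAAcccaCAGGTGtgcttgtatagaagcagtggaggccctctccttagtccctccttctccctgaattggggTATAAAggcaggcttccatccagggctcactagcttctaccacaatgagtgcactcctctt
The spaced form appeared on the printed strand of Cela1 and on the opposite strand of the Gm5771 window. A match is a description of letters and not evidence of binding.

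Across all 18097 targets, a target was counted when the Pnlip-high arrays exceeded the Pnlip-low arrays by at least 1 on the log2 scale of normalized signal, with replicates 1 to 4 and replicates 5 and above as a block (a division by number that the labels do not call a batch), and when every Pnlip-high array lay above every Pnlip-low array. By this rule 22 targets were counted as higher, 0.122% of all targets, and 0 as lower (0%). The median difference over all targets was -0.005, with quartiles of -0.05 and 0.04, and 46.6% of targets lay above 0. With overlap allowed, 47 targets (0.26%) were at least 1 higher and 2 (0.0111%) at least 1 lower. Of the 22 counted targets, 20 belonged to the 43 targets of 7 lists of acinar genes, and the 7 lists had a median difference of 2.37. Without Pnlip, whose place the choice of arrays fixed, these were 19 of 42 targets with a median of 2.34. The other 2 were the predicted genes Gm5409 and Gm5771, singled out after their values were seen. The count was 13 with the intermediate arrays taken as low. It was 46 among replicates 5 and above (2 Pnlip-high against 5 Pnlip-low arrays) and 34 among vehicle arrays (4 against 2). With fewer arrays the no-overlap condition is easier to meet, so 46 and 34 cannot be compared with 22. None of the other 19 gene lists, of ducts, islets and 16 further cell types or programmes, held a counted target.

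**Figure D2:**
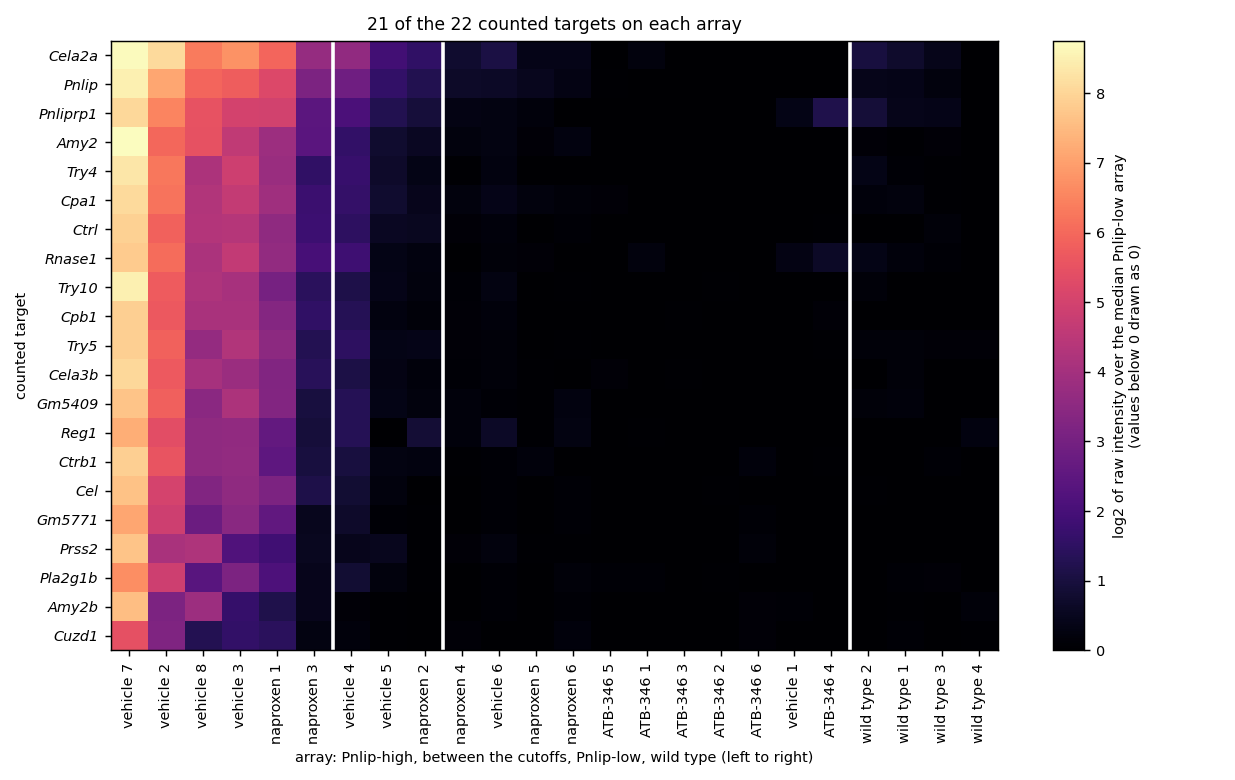
Log2 ratio of raw intensity to the median Pnlip-low array for 21 of the 22 counted targets (rows) on each of the 24 arrays (columns), with values below 0 drawn as 0. Colour is strongest in vehicle 7, grades down through the other Pnlip-high arrays to naproxen 3, and is faint in the intermediate arrays.

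Lipid-digesting enzymes and their partners were the first group. Apart from Pnlip, all 5 targets of this list lay at least 1 higher in Pnlip-high arrays and 3 were counted, with a median of 3.41. Pnlip, which chose the arrays, differed by 5.95 ± 0.54 (log2 difference ± SE, 6 Pnlip-high against 11 Pnlip-low arrays, as for all differences below). Pnliprp1, a lipase-related protein of the pancreas, had a lowest, median and highest intensity of 491, 3563 and 23952 units in Pnlip-high arrays, against 67.6, 90.8 and 204 in Pnlip-low arrays, a difference of 5.44 ± 0.59. Cel, the bile salt-stimulated carboxyl ester lipase, had 145, 706 and 13007 units in Pnlip-high arrays, against 57.4, 65.4 and 68.6 in Pnlip-low arrays, a difference of 4.10 ± 0.63. Pla2g1b, the secreted pancreatic phospholipase A2, differed by 3.41 ± 0.65, with 81.3 to 6127 units in Pnlip-high arrays and 50.9 to 65.3 in Pnlip-low arrays. For Pnliprp1, Cel and Pla2g1b the classes did not overlap.

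Colipase (Clps), the cofactor of Pnlip, was not counted, although its difference was 2.40 ± 0.48. It had 1164 to 22322 units in Pnlip-high arrays and 619 to 2063 units in Pnlip-low arrays, so RNA for Clps was well above the array median on every array. Pnliprp2, another lipase-related protein, had 131 to 3577 units in Pnlip-high arrays and 92.2 to 149 in Pnlip-low arrays, and differed by 2.92 ± 0.58. Both overlapped between the classes.

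The serine proteases formed the longest group, with 8 of 11 targets counted and a list median of 4.49. The pancreatic elastase Cela2a had the widest difference of any target, 6.46 ± 0.57. Its lowest, median and highest intensities were 906.5, 6558 and 29063 units in Pnlip-high arrays, against 65.6, 69.9 and 146 in Pnlip-low arrays and 63.1 to 141 in wild-type arrays. Another elastase, Cela3b, had 174, 1021 and 17596 units in Pnlip-high arrays, against 60.7, 66.5 and 74.7 in Pnlip-low arrays, a difference of 4.49 ± 0.65. The chymotrypsin-like Ctrl differed by 4.81 ± 0.62 and Ctrb1 by 4.15 ± 0.69. Ctrl had 341 to 23953 units in Pnlip-high arrays and 80.4 to 114 units in Pnlip-low arrays.

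Trypsinogens are the precursors that start the activation cascade of the other enzymes. Try4 differed by 4.93 ± 0.67, Try10 by 4.62 ± 0.70, Try5 by 4.51 ± 0.66 and Prss2 by 3.63 ± 0.68. Try4 had 172 to 18583 units in Pnlip-high arrays, against 55.8 to 69.8 units in Pnlip-low arrays. The predicted genes Gm5409 and Gm5771 differed by 4.35 ± 0.67 and 3.69 ± 0.66. In the RefSeq gene order both lie between the trypsinogen genes Prss3 and Prss1, next to each other, within a run that also holds Try5 and Try10. Trypsinogen genes are close copies of each other, so probes may cross-hybridize and the values of single members are uncertain. Chromosome 6 carried 9 of the 22 counted targets, these trypsinogens among them. The share of all targets on this chromosome was not computed, and near copies may not be separate results, so nothing is read from this count.

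Elastase Cela1, with 2629 to 27663 units in Pnlip-high arrays and 839 to 10849 in Pnlip-low arrays, overlapped and differed by 1.86 ± 0.59. Prss3 differed by 1.09 ± 0.40 and Ctrc by 0.71, and both were highest on vehicle 7. Prss3 had 818 units there and at most 161 units on any other array, and 5 of the 6 Pnlip-high arrays exceeded all Pnlip-low arrays, which reached 74.7 units. Ctrc had 340 units on vehicle 7 and at most 105 elsewhere, and 4 of the 6 Pnlip-high arrays exceeded the Pnlip-low arrays, which reached 69.9 units.

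Carboxypeptidases trim amino acids off the ends of digested proteins. Cpa1 differed by 4.89 ± 0.62 and Cpb1 by 4.60 ± 0.62, with the intensities given above.

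Of 5 amylase and nuclease targets 3 were counted. The target named Amy2, a symbol that RefSeq lists as a synonym of several amylase genes, had 356, 2285 and 28618 units in Pnlip-high arrays, against 53.9, 66.2 and 81.0 in Pnlip-low arrays, a difference of 5.36 ± 0.61. Rnase1, the pancreatic ribonuclease, had 349.8, 1881 and 19765 units in Pnlip-high arrays, against 63.9, 87.7 and 137 in Pnlip-low arrays, a difference of 4.80 ± 0.62. Amy2b differed by 3.16 ± 0.68. Amylase genes are also near copies, so the split between Amy2 and Amy2b is uncertain. Amy1, the amylase of salivary gland and liver, differed by 0.05, with 62.8 to 108 units in Pnlip-high arrays and 57.7 to 93.9 units in Pnlip-low arrays. Dnase1 differed by -0.07.

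Granule proteins and inhibitors were mixed, with 2 of 8 targets counted and a list median of 1.04. Reg1, a secreted lectin of acinar cells, had 209, 1315 and 16745 units in Pnlip-high arrays, against 62.9, 109.5 and 168 in Pnlip-low arrays, a difference of 4.27 ± 0.65. Cuzd1, a membrane protein of zymogen granules, differed by 2.31 ± 0.55. Gp2, the major glycoprotein of the zymogen granule membrane, differed by 3.40 ± 0.67 but overlapped. It had 127 to 7720 units in Pnlip-high arrays, and among Pnlip-low arrays 189.5 units on vehicle 1 and 104 units on ATB-346 replicate 4, while the highest of the other 9 Pnlip-low arrays had 71 units. Gp2 is also known as a marker of M cells over intestinal lymphoid follicles. Markers of B cells and follicles, a list of 8 targets, had a median difference of 0.08, and their part in Gp2 was not tested.

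Sycn, the granule protein syncollin, and Spink1, the secreted trypsin inhibitor, overlapped widely between the classes. Sycn had 1307 to 23237 units in Pnlip-high arrays, with a median of 20869, and 1363 to 25645 units in Pnlip-low arrays, with a median of 5126, a difference of 1.11 ± 0.83. Spink1 had 3294 to 25059 units in Pnlip-high arrays, with a median of 22539.95, and 2037 to 25504 units in Pnlip-low arrays, with a median of 6158, a difference of 0.93 ± 0.62. Naproxen 1, with 2423 units of Pnlip, had the lowest Sycn and Spink1 of the Pnlip-high arrays, whereas ATB-346 replicate 4, with the lowest Pnlip of all ApcMin arrays, had the highest Sycn and Spink1 of all. In wild-type arrays Sycn had 3984 to 20780.4 units and Spink1 5766 to 20697 units. Klk1, a tissue kallikrein, had 14188 to 21820 units in Pnlip-high arrays and 13781 to 25506 units in Pnlip-low arrays, a difference of 0.03 ± 0.07.

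**Figure D3:**
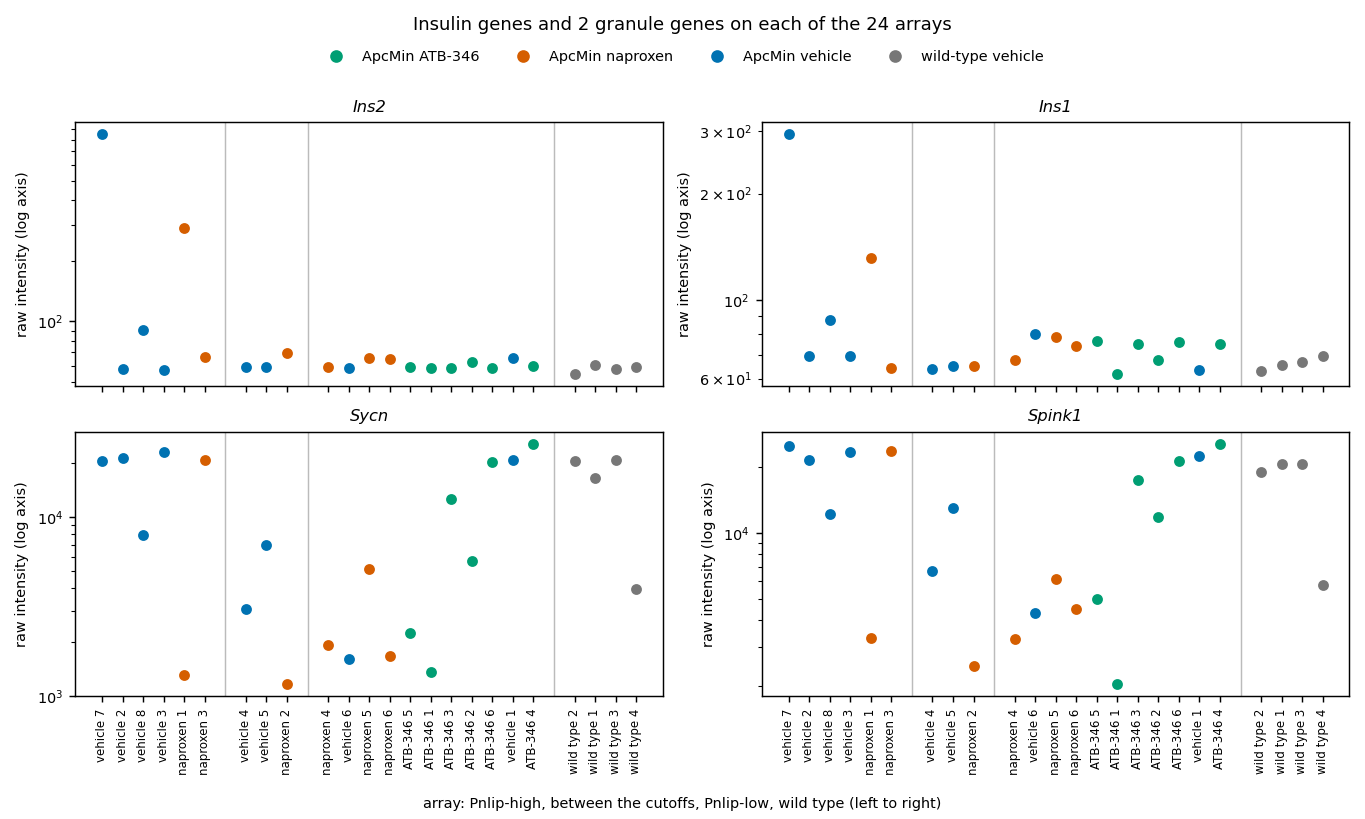
Raw intensity (log axes) of Ins2, Ins1, Sycn and Spink1 on each of the 24 arrays, in blocks of Pnlip-high, intermediate, Pnlip-low and wild-type arrays from left to right. The insulin genes stand out on vehicle 7 and naproxen 1, while Sycn and Spink1 spread over a wide range in every block.

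Genes of the acinar secretory machinery and the acinar transcription factors held no counted target. Erp27, an endoplasmic reticulum protein of the pancreas, differed by 1.41 ± 0.46, with 61.8 to 1126 units in Pnlip-high arrays and 60.7 to 73.7 in Pnlip-low arrays. Rbpjl, the acinar partner in PTF1, differed by 0.67 ± 0.25, with 296 units on vehicle 7 and at most 93 on any other array. Bhlha15, a regulator of secretory cell structure, differed by 0.58 ± 0.22 and overlapped. Ptf1a differed by 0.07 ± 0.07, with 54.5 to 86.9 units in Pnlip-high arrays and 57.3 to 66.9 units in Pnlip-low arrays. The lists had medians of 0.35 over 4 targets of the machinery and 0.06 over 6 transcription factors, and on Pnlip-low arrays all of these were at the dim end except Rab3d, Nr5a2 and Bhlha15.

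Pancreatic duct genes did not separate the classes. None of 11 duct targets was counted, with a median of 0.03 and differences between -0.45 and 0.35. Krt19 differed by -0.04 ± 0.09, Krt7 by 0.02 ± 0.18, Sox9 by 0.06 ± 0.12 and Cftr by 0.03 ± 0.11. Their intensities were high in both classes, with 5237 to 8534 units of Krt19 in Pnlip-high arrays and 4734 to 9222 units in Pnlip-low arrays. The colon epithelium also makes these RNAs, and duct RNA cannot be told apart from it here. Spp1, a secreted phosphoprotein of duct cells among others, reached 278 units on vehicle 7 and at most 110 on any other array.

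Islet genes were not counted either, with 0 of 24 targets and a median of 0.01, where 0.122% of all targets were counted. Only 7 of the 24 had a mean normalized signal above that of the median target. The islet median thus mostly describes dim targets and does not show that islet RNA was absent. Among the 24 islet targets Ins2, an insulin gene and so a marker of beta cells, had the largest difference. Ins2 had 850.5 units on vehicle 7, 290.4 on naproxen 1, 90.5 on vehicle 8 and 57.2 to 66.8 on the other 3 Pnlip-high arrays, against 58.3 to 66.0 units in Pnlip-low arrays. Its difference was 1.22 ± 0.48. Ins1 had 294 units on vehicle 7, 131 on naproxen 1, 87.6 on vehicle 8 and 64.1 to 69.6 on the other 3, against 61.7 to 80.4 units in Pnlip-low arrays, a difference of 0.58 ± 0.24. Ttr, a thyroid hormone carrier also made in islets, differed by 0.85 ± 0.72 and overlapped, with 209 to 2857 units in Pnlip-high arrays and 198 to 3152 units in Pnlip-low arrays. Among Pnlip-high arrays, vehicle 7, naproxen 1 and vehicle 8 were the highest for both insulin genes, and vehicle 2, second in Pnlip, was not among them. Gcg, the glucagon gene, had 1801 to 3257 units in Pnlip-high arrays and 2127 to 4572 units in Pnlip-low arrays, a difference of -0.19 ± 0.19. Sst, the somatostatin gene, differed by -0.26 ± 0.24, and Iapp, which beta cells release with insulin, by -0.14.

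**Figure D4:**
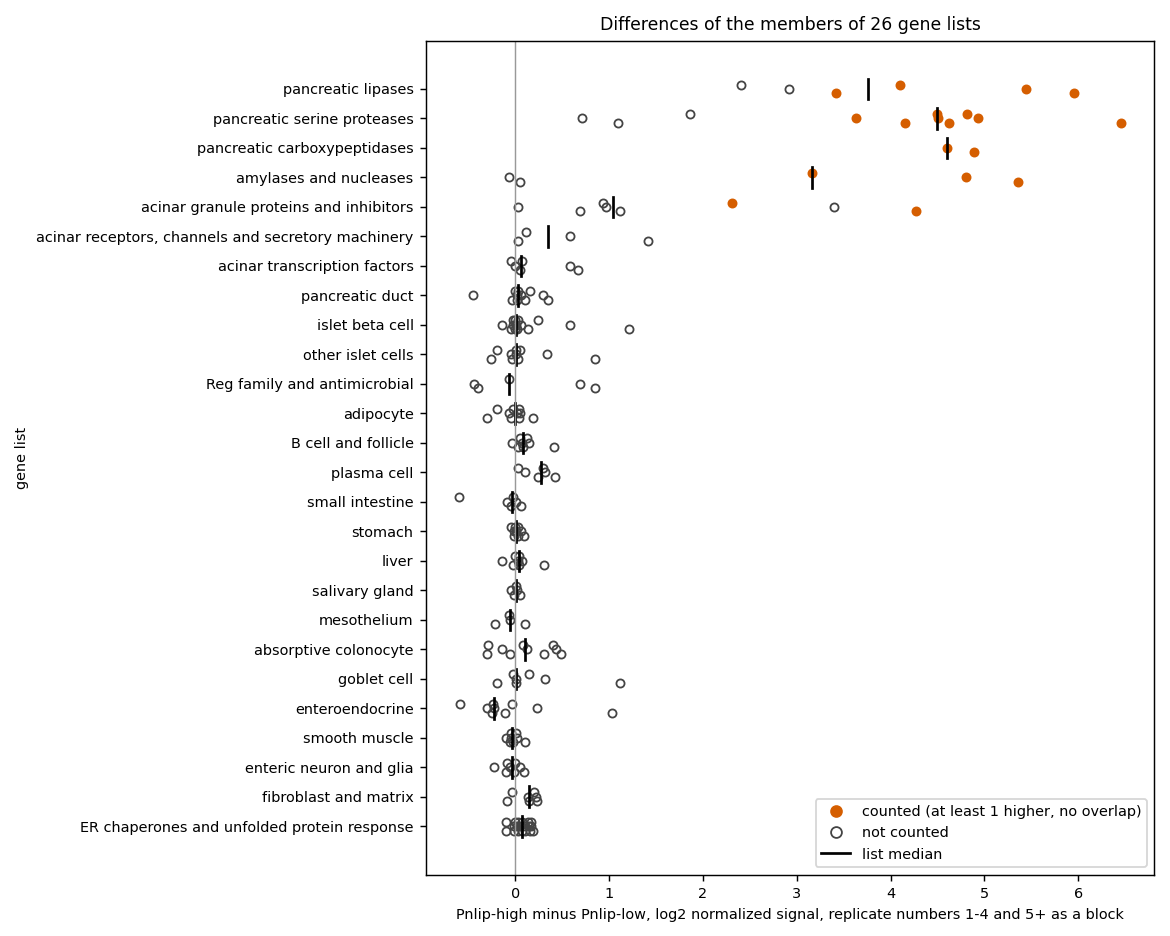
Difference of Pnlip-high minus Pnlip-low arrays (log2 normalized signal, replicate numbers 1 to 4 and 5 and above as a block) for the members of 26 gene lists, with counted targets filled, the other members open, 1 counted target not drawn and a bar at each list median. Filled points appear only in 5 of the acinar lists, and the duct, islet and non-pancreatic lists centre near 0.

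Lists of markers of other tissues had medians close to 0, and where the enzyme RNA came from was not tested. Some of these markers were dim on all arrays. Gkn1 of the stomach had 63.2 to 76.3 units in Pnlip-high and 63.1 to 75.9 units in Pnlip-low arrays. Smr2 of the salivary gland had 49.2 to 61.2 and 49.3 to 62.5 units. A median near 0 over such targets says little. The list medians were -0.004 for 10 adipocyte targets, 0.04 for 8 liver targets, 0.01 for 9 stomach and for 5 salivary gland targets, -0.04 for 6 small intestine targets and -0.06 for 4 mesothelium targets. Plasma cell markers had 6 of 6 targets above 0 and a median of 0.27, and none was counted. Among colon cell types, absorptive colonocytes had a median of 0.11, goblet cells 0.01, smooth muscle -0.04 and fibroblasts 0.15. Enteroendocrine markers had a median of -0.22, with 7 of 9 targets below 0. Endoplasmic reticulum chaperones, abundant in secretory cells, had a median of 0.07 over 19 targets.

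Few other targets separated the classes without overlap at any size. Besides the 22, Zfp691 (0.18) and Olfr488 (0.10) were higher, which makes 24 targets or 0.133%. Lower were Cenpn, a centromere protein, by -0.30 ± 0.06, and Naa25, a subunit of an N-terminal acetyltransferase, by -0.26 ± 0.06, which makes 2 targets or 0.0111%. Cenpn had 90.9 to 103 units in Pnlip-high arrays and 104 to 150 units in Pnlip-low arrays.

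The amount of this RNA was graded over arrays. Summed over the 22 targets, the intensity in excess of the Pnlip-low median made up 3.84% of the total signal of vehicle 7, 1.05% of vehicle 2, 0.34% each of vehicle 8 and vehicle 3, 0.23% of naproxen 1 and 0.0346% of naproxen 3. On vehicle 7, 17 of the 22 targets ranked among the 100 brightest of the array, against 1 on vehicle 2 and 0 on the other 4 Pnlip-high arrays. Vehicle 4, between the cutoffs, had 0.0309% and so almost reached naproxen 3. It exceeded the highest Pnlip-low array on 19 of the 21 targets other than Pnlip, vehicle 5 on 16 and naproxen 2 on 9. The 4 wild-type arrays did so on 2, 1, 0 and 1 targets, so none of them carried the whole set. These 21 targets were chosen for their separation from the same Pnlip-low arrays. The share of all targets on which each array exceeded the highest Pnlip-low array was not computed, so these counts have no background beside them.

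The proportions among the enzymes varied over the Pnlip-high arrays. For each of the 21 counted targets other than Pnlip, the excess over the Pnlip-low median was divided by that of Pnlip and scaled to a median of 1 over the 6 arrays. The highest array exceeded the lowest by less than 2 times for 2 targets, by 2 to 3 times for 4 and by 3 times or more for 15, with a median of 3.73. Pnliprp1 kept the closest proportion, with a spread of 1.53, and Cela2a followed with 1.72. For every target other than Pnliprp1 and Cela2a the highest array was vehicle 7, so the spread rests largely on 1 array. On naproxen 3, often the lowest, the excess was small and imprecise. Gm5771 had 84.6 units there, against a Pnlip-low median of 59.8. Prss2 had an index of 5.91 on vehicle 7 and 3.09 on vehicle 8, against 0.58 to 1.24 on the other 4 arrays. Amy2b had 10.1 on vehicle 7 and 4.28 on vehicle 8, against 0.67 to 1.08 on the other 4. Vehicle 7 and vehicle 8 are the 2 Pnlip-high arrays with replicate numbers of 5 and above. Several targets on vehicle 7 lay near the highest intensity of the table, 36652 units, and the part of the bead scale or of the replicate number in these proportions was not tested.

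**Figure D5:**
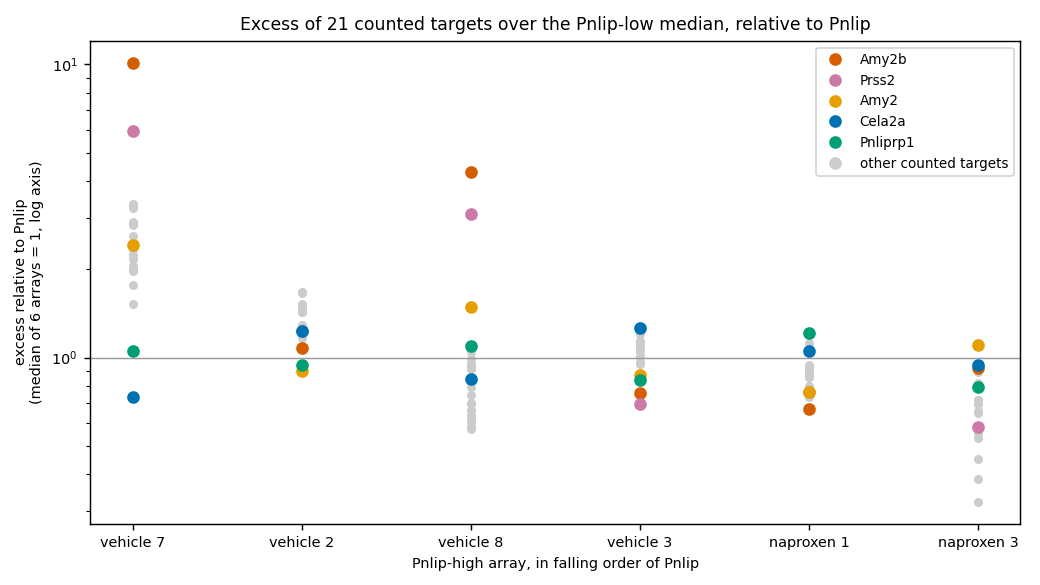
Excess of each of 21 counted targets over the Pnlip-low median relative to that of Pnlip (median of 6 arrays set to 1, log axis) on the 6 Pnlip-high arrays, in falling order of Pnlip. Amy2b reaches 10.1 and Prss2 5.91 on vehicle 7, and both are also raised on vehicle 8.

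The treatment labels did not choose the arrays, so the number of Pnlip-high arrays was compared between treatment groups. The Pnlip-high arrays themselves were chosen with earlier results of these data known. The p-values below are therefore descriptive. They also treat arrays as independent, although the labels do not say whether arrays came from separate animals. None of 6 ATB-346 arrays was Pnlip-high (0%, exact 95% binomial interval up to 45.9%), against 4 of 8 vehicle arrays (50%, 15.7% to 84.3%). Fisher's exact test, two-sided, gave p = 0.0849, or 0.255 after Benjamini-Hochberg adjustment over 3 pairs. Naproxen had 2 of 6 Pnlip-high arrays (33.3%, 4.33% to 77.7%), against the same 4 of 8 vehicle arrays, with an exact p = 0.627 and an adjusted exact p of 0.627. Between ATB-346, with 0 of 6, and naproxen, with 2 of 6, the exact p was 0.455 and the adjusted exact p 0.627. No pair passed 0.05. The intervals cover counting error only. With the cutoff at 150 in place of 500, a choice that counts the intermediate arrays as positive, ATB-346 differed from vehicle by -75 percentage points, with an adjusted exact p of 0.0290. With the cutoff at 1000, the difference was -50 percentage points, with an adjusted exact p of 0.255. ATB-346 thus had the smaller share at each cutoff, while its size and whether the adjusted exact p lay under 0.05 depended on the cutoff.

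In RefSeq, 17 of the 22 counted targets had a promoter window. CACCTG occurred in 9 of them (52.9%), against 20.2% of all 32851 windows. TTTCCC occurred in 8 (47.1%), against 25.2% of all windows, and TATAAA in 7 (41.2%), against 13.6% of all windows. The spaced form occurred in 1 of the 17 (5.88%), that of Gm5771, and in 5 of all windows (0.0152%). The other 4 were those of Cela1 and Prss1, both pancreatic proteases, and of Esp18 and Npnt. These shares are given without a test, and a window without a match says only that these letters are not in it.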

How the data were processed

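Colon RNA was labelled with biotin and hybridized to single-colour Illumina arrays, per the labels' protocols. The deposited gene table holds the linear average bead intensity of 18097 targets on 24 arrays, exported by the authors with normalization set to none in GenomeStudio 1.7.0, per the file headers. Any background subtraction by the authors is not stated. The deposited series matrix holds intensity values of 25697 probes, of which none was annotated to Pnlip, and served as an alternative with arrays sorted by the gene table. The precision of all values is limited by the number of arrays.

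Intensities were corrected with normexp (offset 50), set to log2 and quantile-normalized (limma 3.58.1, R 4.3.3), without a filter on dim targets. The offset draws differences of dim genes towards 0. Differences and their SE come from a linear model across all targets with the replicate number (1 to 4, or 5 and above) as a block, a division that the labels do not describe as a batch. Raw intensities are printed for levels. Of the targets, 14096 matched a mouse RefSeq symbol, 3025 a synonym, 75 several genes and 901 none, which kept the file's name. The fit was tested on simulated data.

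Named were the 4 acinar markers, Ptf1a, the islet and duct markers Ins1, Ins2, Gcg, Sst, Krt19, Krt7, Sox9 and Cftr, the counted targets with the widest differences (30 higher, 10 lower at most, predicted genes excluded), the non-overlapping lower targets where fewer were counted, up to 4 members of each list, and any acinar gene. The members, lists and arrays were chosen with earlier results of these data known. Alternatives changed the normalization, the filter, the block, the cutoffs and the arrays used, and left out each array in turn. Prss1, Cela3a, Pdia2 and Tmed6 were not analysed here, and 1 counted target is not reported by name.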

Additional observations from a re-analysis of the deposited data

Results flagged for a closer look

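Arrays that stood far from the others of their group were looked for with Dixon's criterion. It was applied to 165 combinations of a measure (a target or a list mean) with a group of 4 to 10 arrays. It marked 25, where chance marks about 1 in 20 of independent combinations. Many measures rise together, and the counted targets and the Pnlip-high group were chosen from these data, so that rate cannot be applied to the 25. All values are log2 normalized signals, with the nearest array of the group in brackets.

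On naproxen 1, in comparison with the other naproxen arrays, 10 targets were marked as high. Of these, 8 are counted targets, which were chosen because naproxen 1 and the other Pnlip-high arrays exceed the Pnlip-low arrays, so the chance rate does not apply to them. These were Ctrb1 at 8.94 (7.17), Try5 at 9.51 (7.01), Cel at 9.35 (7.09), Cuzd1 at 7.44 (6.14), Pla2g1b at 8.21 (6.31) and Prss2 at 8.10 (6.55). The predicted genes Gm5409 at 9.41 (6.88) and Gm5771 at 8.66 (6.36) were among them, as were the insulin genes Ins1 at 7.16 (6.22) and Ins2 at 8.36 (6.25).

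On vehicle 7, in comparison with the other vehicle arrays, Ins1 was high at 8.24 (6.43), Ins2 at 9.82 (6.47) and Ptf1a at 6.43 (6.06). There the mean of the islet lists was 7.14 (6.85) and that of the duct list 8.46 (8.20). In comparison with the other Pnlip-high arrays, vehicle 7 was high for Ptf1a at 6.43 (6.00), for the islet mean at 7.14 (6.86) and for the duct mean at 8.46 (8.15).

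Among ATB-346 arrays, Cela2a was high on replicate 1 at 6.49 (6.16) and Pnliprp1 on replicate 4 at 7.46 (6.44), while Ins1 was low on replicate 1 at 6.01 (6.16) and Gcg on replicate 4 at 10.7 (11.6). Among wild-type arrays, replicate 4 was high for Sst at 11.3 (9.52) and Krt7 at 10.3 (9.74), and replicate 1 was low for Ptf1a at 5.83 (5.88).

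The 3 arrays left out of the comparison also had raised signal for part of the counted targets. Of the 21 counted targets other than Pnlip, 19 on vehicle 4, 16 on vehicle 5 and 9 on naproxen 2 exceeded the highest Pnlip-low array. The targets were chosen for separation from those Pnlip-low arrays, and the share of all targets that did so was not computed.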

How the results depend on the processing

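All 22 counted targets were also counted without normexp, without the block of replicate numbers and with treatment added to the block. All 22 recurred with replicates 1 to 4 only, without the ATB-346 arrays (23 in all) and with the upper cutoff at 1000 (29 in all). The no-overlap condition does not use the block and holds in any subset of these Pnlip-high and Pnlip-low arrays. Here and below, changing the block or leaving arrays out could lose a counted target only through the size of its difference. Such recurrences were largely fixed in advance. Median scaling counted 21 of them and the series matrix 19 targets. The count was 13 of the 22 with the intermediate arrays counted as low. It was 34 with vehicle arrays only (4 Pnlip-high against 2 Pnlip-low arrays), with all 22 among them. With replicates 5 and above only (2 against 5) it was 46, again with all 22. The count of lower targets was 6 with replicates 5 and above only and 0 in the main comparison. With fewer arrays the no-overlap condition is easier to meet, so these counts cannot be compared with those of the main comparison. The acinar median was 4.10 over the 29 of 43 acinar targets left by a filter on dim targets, which some passed only through the Pnlip-high arrays, so it supports nothing. Leaving out each array in turn gave 22 to 29 targets higher, 0 to 0 lower, and medians of 1.61 to 2.74 for acinar, 0.01 to 0.03 for islet and 0.01 to 0.08 for duct genes. The acinar median was lowest without vehicle 7.

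With the replicate number itself as a replicate block, 22 targets were higher, all 22 shared, 0 were lower, and the acinar median was 1.74. The block does not enter the no-overlap condition, so this count could change only through the size of the differences. Same-numbered arrays did not consistently deviate together (9 of 18 pairs had r over 0.1, range -0.55 to 0.51), so the numbers were not treated as pairs. Deviations were taken from the mean of each treatment group within each block of replicate numbers, so the 18 values are not independent.

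For the share of Pnlip-high arrays, a cutoff of 150 gave -75 percentage points for ATB-346 against vehicle (adjusted exact p = 0.0290). A cutoff of 1000 gave -50 points (adjusted exact p = 0.255). Leaving out arrays gave -57.1 to -42.9 points (adjusted p 0.210 to 0.577) for ATB-346 against vehicle, -30 to -9.52 for naproxen against vehicle, and -40 to -20 for ATB-346 against naproxen. Depth is not defined for arrays. Levels near the array median cannot be told from background here.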

Other observations

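Vehicle 7 exceeded all of the other 23 arrays by at least 1 on the log2 scale for 40 of the 18097 targets. This held for 0 to 4 targets on any other array. Of the 40 targets, 21 were counted ones, against 0.122% counted among all targets, and 30 belonged to the acinar, duct or islet lists. The counted targets were chosen with vehicle 7 among the Pnlip-high arrays. Their presence among the 40 was therefore partly fixed by that choice and supports nothing further. The remaining ones, singled out after their values were seen, included Tff2, a trefoil peptide of mucous cells, at 10747 units on vehicle 7 and at most 2241 on the other arrays. Slc38a5, an amino acid transporter, had 589 units on vehicle 7 and at most 209 elsewhere. Reg3d, of the Reg family that also holds Reg1, had 383 units on vehicle 7 and at most 106 elsewhere. Cabp2, a calcium-binding protein, had 382.5 units there and at most 108 elsewhere, and 2210010C04Rik, which lies among the trypsinogen genes in the RefSeq gene order, had 3246 units there and at most 679.7 elsewhere. Serpini2, a serine protease inhibitor of the acinar lists, had 445 units on vehicle 7 and at most 75.6 elsewhere, and Aqp12, a pancreatic aquaporin, had 297 units and at most 107 elsewhere.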
